A study of Arabidopsis thaliana with 12 samples.

Results

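Jasmonate output genes were followed through rosette leaves of Arabidopsis thaliana given 2'cADPR or water. They were chosen by gene code from knowledge of the pathway, with earlier results of these data known. They were 10 of the 24228 genes in the deposited table: 6 of the MYC branch (MYC2, MYC3, MYC4, VSP1, VSP2 and CORI3) and 4 of the ERF branch (ERF1, ORA59, PDF1.2a and PDF1.2b). All 10 passed the filter on low counts, which left 19652 genes. One genotype was wild type (Col-0) and the other a PAD4 knockout, here pad4, and both received 2'cADPR or a mock treatment with water. Each of the 4 groups held 3 libraries, 12 in all. The filter asked for about 10 counts in at least 3 libraries. ERF1 reached that only in wild type libraries. ORA59 reached it in every pad4 library, but in wild type only in water-treated libraries 1 and 2. Each of these genes thus passed only through the genotype where it was higher. The labels name no allele for the knockout and give no dose, time or plant age. 2'cADPR is a cyclic ADP-ribose isomer made by TIR-domain immune proteins, and PAD4 is the EDS1 partner that works with the helper receptor ADR1. The question addressed was how leaves respond to 2'cADPR and whether the response needs the route of EDS1, PAD4 and ADR1.

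Jasmonate is a lipid-derived hormone of wounding, feeding insects and necrotrophic microbes. Its active form, jasmonoyl-isoleucine, joins the receptor COI1 to the JAZ repressors, which are then degraded and release transcription factors. In one branch the released factors are the basic helix-loop-helix proteins MYC2, MYC3 and MYC4, which drive genes of wound and insect defence such as VSP1 and VSP2. In the other branch jasmonate acts with ethylene through EIN3 and EIL1 on ERF1 and ORA59, which drive antifungal defensins such as PDF1.2. The branches are known to oppose each other, MYC2 restraining the ERF branch, and salicylic acid, whose synthesis PAD4 promotes, is known to restrain jasmonate outputs in leaves.

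Library totals lay between 35.8 and 44.4 M counted reads. PAD4 checked the labels: it stood at 63.9 to 75.0 CPM (counts per M reads of the scaled library total) in wild type after water, at 518 to 590 CPM after 2'cADPR, and at 2.52 to 5.51 CPM in the 6 pad4 libraries. Leaf mesophyll markers (RBCS1A, RCA, LHCB2.1 and LHCA1) summed to 10267 to 23190 CPM, lowest in wild type after 2'cADPR. The seed marker OLEO1 reached at most 0.0233 CPM and the root hair marker EXPA7 at most 0.0230 CPM. SCR, listed as a root marker and known also from the leaf bundle sheath, stood at 33.4 to 39.1 CPM in 3 groups and at 47.4 to 55.1 CPM in wild type after 2'cADPR. Flower markers (AG, AP3, PI, AP1 and SEP3, 5 of 5 in the table) summed to 2.45 to 3.49 CPM in wild type after water and 0.790 to 1.07 CPM after 2'cADPR, against 4.87 to 15.7 CPM in pad4 after water and 4.27 to 6.16 CPM after 2'cADPR. AG and SEP3 carried these sums: AG stood at 1.22 to 1.42 CPM in wild type and 2.86 to 3.49 CPM in pad4 after water, and at 0.325 to 0.703 and 2.61 to 2.82 CPM after 2'cADPR. SEP3 stood at 1.13 to 2.14 CPM in wild type and 1.80 to 11.997 CPM in pad4 after water, and at 0.215 to 0.339 and 1.61 to 3.14 CPM after 2'cADPR. The other members AP3 and PI reached at most 0.186 and 0.203 CPM, and AP1 was at 0 in all treated pad4 libraries. Water-treated pad4 library 2 stood apart from its group, with 522 CPM of chloroplast-encoded genes against 251 to 349 CPM in the other 11 libraries and the highest flower sum. It also held the highest values of 3 ERF branch members, so fold changes that rest on it are given with and without it. Water-treated wild type library 1 stood apart too, with 31.1 CPM of the salicylic acid marker gene PR1 against 1.94 and 2.48 CPM in the other two of its group. It held 13 of the 15 counts of ERF1 and 39 of the 57 of ORA59 in that group and its highest PDF1.2b value. Fold changes that rest on it are likewise given without it. Correlations, scatter within groups and levels per gene length are given only with both libraries included. Nothing in the labels ties replicates to separate plants, so p-values measure only the spread between these samples. RNA came from whole leaf, so fewer cells of a type and less RNA per cell cannot be told apart.

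All 10 are protein-coding genes of TAIR10.1, and the counts cover their exons. The MYC branch genes are MYC2 at 11798119 to 11801407 of chromosome 1 (minus strand), MYC3 at 18974022 to 18976590 of chromosome 5 (plus strand), MYC4 at 9933326 to 9935685 of chromosome 4 (minus strand), VSP1 at 8507590 to 8509201 of chromosome 5 (minus strand), VSP2 at 8500468 to 8502224 of chromosome 5 (minus strand) and CORI3 at 12310379 to 12313212 of chromosome 4 (plus strand). The ERF branch genes are ERF1 at 8295617 to 8296604 of chromosome 3 (plus strand), ORA59 at 1882907 to 1883992 of chromosome 1 (plus strand), PDF1.2a at 17906968 to 17907638 of chromosome 5 (minus strand) and PDF1.2b at 11089123 to 11089805 of chromosome 2 (plus strand).

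Stretches of upstream sequence are shown for 5 genes because their genes moved together from library to library or carry the box that ERF factors bind. Each is the 250 bases before the RefSeq gene start in TAIR10.1, written 5′ to 3′ on the gene's own strand, with coordinates counted on the plus strand. The capitals mark the GCC box (GCCGCC), the G-box (CACGTG) and the T/G-box (AACGTG, or CACGTT where it lies on the other strand). The defensin genes PDF1.2a (chr5:17907639-17907888, minus strand) and PDF1.2b (chr2:11088873-11089122, plus strand), the regulator ORA59 (chr1:1882657-1882906, plus strand), and the storage protein genes VSP1 (chr5:8509202-8509451, minus strand) and VSP2 (chr5:8502225-8502474, minus strand) read as follows.
PDF1.2a: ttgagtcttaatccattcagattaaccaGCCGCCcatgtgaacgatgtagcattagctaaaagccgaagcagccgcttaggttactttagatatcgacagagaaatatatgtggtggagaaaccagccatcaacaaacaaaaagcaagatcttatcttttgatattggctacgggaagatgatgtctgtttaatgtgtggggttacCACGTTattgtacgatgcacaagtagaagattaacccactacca
PDF1.2b: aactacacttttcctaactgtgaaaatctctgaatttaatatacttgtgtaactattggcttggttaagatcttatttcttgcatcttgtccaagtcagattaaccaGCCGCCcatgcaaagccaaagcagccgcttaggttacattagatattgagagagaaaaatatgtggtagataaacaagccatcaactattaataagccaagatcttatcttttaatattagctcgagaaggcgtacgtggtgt
ORA59: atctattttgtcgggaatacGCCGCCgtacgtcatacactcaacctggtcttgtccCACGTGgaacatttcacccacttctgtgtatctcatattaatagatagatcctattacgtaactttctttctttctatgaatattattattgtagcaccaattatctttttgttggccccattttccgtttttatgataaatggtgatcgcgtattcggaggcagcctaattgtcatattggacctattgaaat
VSP1: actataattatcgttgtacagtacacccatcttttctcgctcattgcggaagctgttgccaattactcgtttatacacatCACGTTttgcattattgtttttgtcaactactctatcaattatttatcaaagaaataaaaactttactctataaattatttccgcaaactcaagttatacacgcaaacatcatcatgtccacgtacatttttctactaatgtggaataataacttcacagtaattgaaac
VSP2: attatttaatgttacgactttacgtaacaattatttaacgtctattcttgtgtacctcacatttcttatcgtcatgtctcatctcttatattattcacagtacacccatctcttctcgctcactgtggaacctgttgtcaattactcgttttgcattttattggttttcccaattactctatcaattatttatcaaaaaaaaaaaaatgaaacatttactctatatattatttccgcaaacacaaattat

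The GCC box, the element that ERF proteins bind, was found in 3 of the 10 windows, those of ORA59, PDF1.2a and PDF1.2b, and in 1.96% of 22593 windows of the same length. It began 222 bases before the start of PDF1.2a, 143 before PDF1.2b and 230 before ORA59. The defensin genes lie on different chromosomes and share a run of 22 bases around it, tcagattaaccaGCCGCCcatg. The T/G-box, a MYC-binding element, was found upstream of MYC2, VSP1 and PDF1.2a and in 7.48% of all windows. The G-box was found upstream of ORA59 alone of the 10, and in 7.12% of all windows. The W-box of WRKY factors (TTGACC) was in 0 of the 10 windows and in 12.2% of all. In windows of 1000 bases it was in 6 of the 10 and 35.5% of all, the GCC box in 3 and 8.78%, the T/G-box in 3 and 23.8%, and the G-box in 1 and 15.6%. VSP1 and VSP2, neighbours on chromosome 5, share a run of 23 bases, tactctatcaattatttatcaaa, which holds none of these elements. The motifs were read on both strands and do not overlap each other in these 10 windows. A match describes letters and is not a measured binding site.

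**Figure D1:**
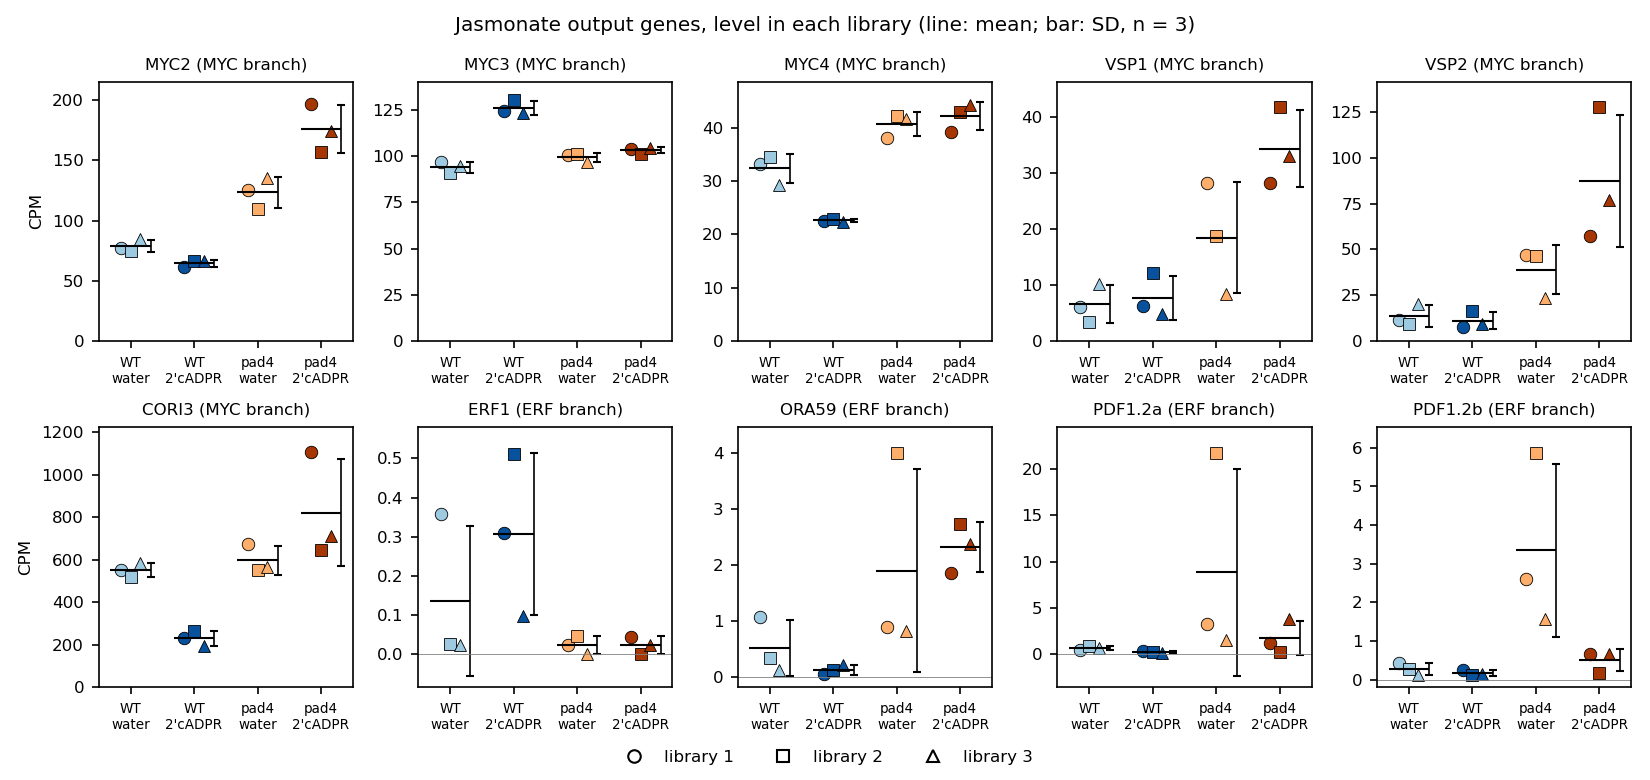
Level of each of the 10 genes in CPM (vertical axis, linear, a separate scale for each gene) in the 4 groups (horizontal axis). Points are libraries, the horizontal line is the group mean and the bar is the SD of 3 libraries. MYC2, VSP1, VSP2 and CORI3 reach their highest level in pad4 after 2'cADPR, and PDF1.2a and PDF1.2b theirs in library 2 of pad4 after water.

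The MYC regulators did not move alike after 2'cADPR in wild type: MYC2 and MYC4 fell while MYC3 rose. MYC2 (AT1G32640), the main activator of the branch, stood at 77.0, 75.0 and 84.9 CPM in the water-treated wild type libraries and at 61.4, 66.4 and 66.3 CPM after 2'cADPR. Every treated library lay below every control library. The log2 fold change was -0.29 (SE 0.092, adjusted p = 0.0120), which missed the threshold without water-treated library 3 (adjusted p = 0.0582) or treated library 1 (adjusted p = 0.0628). MYC4 (AT4G17880), a close relative of MYC3 with overlapping function, stood at 33.2, 34.6 and 29.3 CPM after water and at 22.5, 22.9 and 22.4 CPM after 2'cADPR. The treated libraries were nearly equal and all below the controls, with a log2 fold change of -0.52 (SE 0.078, adjusted p = 2.75e-05). MYC3 (AT5G46760) went the other way, from 96.7, 90.8 and 94.5 CPM to 125, 130 and 123 CPM, again with no overlap. Its log2 fold change was 0.42 (SE 0.055, adjusted p = 5.90e-06).

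MYC2 was higher in pad4 than in wild type after both treatments. MYC2 stood at 125, 110 and 136 CPM in water-treated pad4 and at 197, 157 and 174 CPM after 2'cADPR. All 6 pad4 libraries lay above all 6 wild type libraries. The difference between genotypes was a log2 of 0.65 after water (SE 0.092, adjusted p = 7.80e-05) and 1.44 after 2'cADPR (SE 0.093, adjusted p = 1.49e-09). Within pad4 the treated libraries lay above the controls by a log2 of 0.51 (95% interval 0.32 to 0.71). It was not called over all genes by edgeR (adjusted p = 0.227, unadjusted p = 5.78e-05) or limma-voom (adjusted p = 0.0915), and was called by DESeq2 (adjusted p = 7.65e-04). The response of MYC2 differed between genotypes by a log2 of 0.80 (SE 0.13, adjusted p = 9.01e-05).

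MYC2 carries a limit of annotation: 3241 of its 3289 exon bases, or 98.5%, lie opposite AT1G32630, and no source used here says whether counting used the strand. Without strand, reads of the pair cannot be told apart. AT1G32630 had 256 to 490 counts a library and MYC2 2570 to 8712.

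MYC3 and MYC4 hardly moved within pad4. MYC3 stood at 101, 101 and 96.7 CPM after water and 104, 101 and 105 CPM after 2'cADPR, a log2 difference of 0.055 with a 95% interval of -0.063 to 0.17. MYC4 stood at 38.0, 42.2 and 41.7 CPM and then at 39.2, 43.0 and 44.3 CPM, a log2 difference of 0.053 with an interval of -0.11 to 0.22. Both intervals exclude the size of the wild type response of the same gene. The responses differed between genotypes for MYC3 (interaction log2 -0.37, SE 0.078, adjusted p = 8.53e-04) and MYC4 (0.57, SE 0.11, adjusted p = 3.80e-04). After water, MYC4 was higher in pad4 than in wild type (log2 0.33, adjusted p = 0.00449) and MYC3 was not called (log2 0.081, adjusted p = 0.309). After 2'cADPR, MYC4 was higher in pad4 (log2 0.90, adjusted p = 4.57e-08) and MYC3 lower (log2 -0.29, adjusted p = 2.15e-04).

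Of the MYC outputs, CORI3 fell after 2'cADPR in wild type. CORI3 (AT4G23600), a cystine lyase gene named for its induction by the jasmonate mimic coronatine, stood at 550, 517 and 586 CPM after water and at 232, 262 and 194 CPM after 2'cADPR. The treated libraries lay far below the controls, by a log2 fold change of -1.27 (SE 0.17, adjusted p = 7.49e-06). In pad4 it stood at 673, 549 and 567 CPM after water and at 1108, 644 and 714 CPM after 2'cADPR, where treated library 2 lay within the range of the controls. That difference was a log2 of 0.46 (95% interval 0.11 to 0.82, adjusted p = 0.870) and 0.19 without treated library 1, and the response differed between genotypes by a log2 of 1.73 (SE 0.24, adjusted p = 1.72e-05). After water the genotypes overlapped (log2 0.11, adjusted p = 0.657), and after 2'cADPR pad4 was higher by a log2 of 1.84 (SE 0.17, adjusted p = 1.02e-07).

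VSP1 and VSP2 encode vegetative storage proteins of the acid phosphatase family that accumulate after wounding. VSP2 (AT5G24770) stood at 11.4, 9.41 and 20.4 CPM in wild type after water and at 7.86, 16.5 and 9.16 CPM after 2'cADPR. These groups overlapped (log2 -0.30, adjusted p = 0.486), with a 95% interval of -1.0997 to 0.49. In pad4 it stood at 46.8, 46.5 and 23.4 CPM after water and at 57.6, 128 and 77.2 CPM after 2'cADPR. Every pad4 library lay above every wild type library, and every treated pad4 library above its controls. The genotypes differed by a log2 of 1.49 after water (SE 0.36, adjusted p = 0.00555) and 2.96 after 2'cADPR (SE 0.37, adjusted p = 3.29e-06). Within pad4 the log2 difference was 1.17 (95% interval 0.43 to 1.90) and was not called (adjusted p = 0.745). The response differed between genotypes by a log2 of 1.47 (SE 0.51, adjusted p = 0.0215). That call was lost without water-treated wild type library 3, treated wild type library 1 or 3, or treated pad4 library 2, with log2 values of 1.06, 1.26, 1.33 and 1.096 and adjusted p of 0.0518 to 0.0877.

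VSP1 (AT5G24780) showed a similar pattern with more scatter. It stood at 6.16, 3.46 and 10.3 CPM in wild type after water and at 6.23, 12.1 and 4.85 CPM after 2'cADPR, groups that overlapped (log2 0.22, adjusted p = 0.677). In pad4 it stood at 28.2, 18.9 and 8.40 CPM after water, where library 3 lay inside the wild type range, and at 28.3, 41.9 and 33.1 CPM after 2'cADPR. The genotypes differed by a log2 of 1.47 after water (SE 0.43, adjusted p = 0.0170) and 2.15 after 2'cADPR (SE 0.42, adjusted p = 2.78e-04). The first call was lost without water-treated wild type library 1 or 2 or pad4 library 1 (adjusted p 0.0507 to 0.0928). Within pad4 the log2 difference was 0.90 (adjusted p = 0.965), and the interaction was 0.68 (adjusted p = 0.344). VSP1 and VSP2 are 76.9% identical over their exons with a longest shared run of 54 bases, so some reads could have been split or lost between them.

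The ERF branch was present at much lower levels than the MYC branch in wild type, and its regulators differed from each other. ERF1 (AT3G23240), an ethylene response factor that activates defensin genes, had 13, 1 and 1 counts in wild type after water and 13, 22 and 4 counts after 2'cADPR. In pad4 it had 1, 2 and 0 counts after water and 2, 0 and 1 after 2'cADPR. Most of the wild type counts were thus in treated libraries and in control library 1, and no pad4 library held more than 2. After 2'cADPR the 39 wild type counts against 3 in pad4 gave a ratio of 13.0 on scaled totals (95% exact interval 4.14 to 65.8, counting error only), and edgeR called the difference (adjusted p = 0.0119). This call was lost without treated wild type library 2 (adjusted p = 0.0557). ERF1 passed the filter on low counts only through wild type, so it was tested because of the genotype where it was higher. After water the ratio of 15 to 3 counts was 5.40 (1.53 to 29.1, counting error only), not called by edgeR (adjusted p = 0.194). Of those 15 counts 13 lay in control library 1, and without it edgeR's fitted log2 moved from -2.37 to -0.10 (adjusted p = 0.974). In wild type the treated and control groups overlapped (log2 1.19, adjusted p = 0.266), and without control library 1 the rise was called (log2 3.48, adjusted p = 0.0173). Within pad4 both groups held 3 counts, too few to read a change from, and the fitted log2 of -0.030 had a 95% interval of -3.50 to 3.44. The interaction of ERF1 was a log2 of -1.22 and was not called by edgeR (adjusted p = 0.636). It was -3.50 without water-treated wild type library 1 and -0.38 without water-treated pad4 library 2, neither called.

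ORA59 (AT1G06160), the factor in which jasmonate and ethylene signals meet on the defensin genes, had its highest levels in pad4. It stood at 1.07, 0.346 and 0.120 CPM in wild type after water, from 39, 13 and 5 counts, and at 0.0478, 0.116 and 0.218 CPM after 2'cADPR, from 2, 5 and 9 counts. The groups overlapped, and the log2 fold change was -1.97 (SE 0.88, adjusted p = 0.0597). Without water-treated library 1 it was -0.82 (adjusted p = 0.454), and limma-voom did not call it (adjusted p = 0.263). The fall was called by DESeq2 (adjusted p = 0.0184), with no filter on low counts (adjusted p = 0.0470) and without water-treated library 3 (log2 -2.45, adjusted p = 0.0202). In pad4 it stood at 0.890, 3.999 and 0.814 CPM after water and at 1.85, 2.74 and 2.37 CPM after 2'cADPR, with library 2 of the controls above all treated libraries (log2 0.29, 95% interval -1.04 to 1.62). Without that library the log2 was 1.44 and without water-treated library 1 or 3 it was -0.052 or -0.074, with no call. After 2'cADPR every pad4 library lay above every wild type library, and ORA59 was higher in pad4 by a log2 of 4.16 (SE 0.81, adjusted p = 2.76e-04). ORA59 passed the filter on low counts only through pad4, the genotype where it was higher. After water the genotypes overlapped (log2 1.91, adjusted p = 0.0518). This value was 0.75 without water-treated pad4 library 2 and was called, at 3.04, without water-treated wild type library 1 (adjusted p = 0.00967). It was also called without pad4 library 1 or 3 (2.25 and 2.27), with RLE factors, with no filter and by DESeq2 (adjusted p 0.0164 to 0.0481), and not by limma-voom (adjusted p = 0.0689). The interaction was a log2 of 2.25 (adjusted p = 0.0891), called by DESeq2 (adjusted p = 0.0439), without water-treated pad4 library 2 (3.41, adjusted p = 0.00699) and without water-treated wild type library 3 (2.74, adjusted p = 0.0352). Without water-treated wild type library 1 it was 1.12 (adjusted p = 0.397).

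The defensin genes were higher in pad4 after water. PDF1.2a (AT5G44420), a secreted antifungal peptide gene and the usual marker of the branch, stood at 0.357, 0.824 and 0.553 CPM in water-treated wild type and at 3.23, 21.8 and 1.44 CPM in water-treated pad4. All pad4 values lay above all wild type values, and library 2 was far above the other pad4 libraries. The log2 difference was 3.92 (SE 0.98, adjusted p = 0.00700). Without that library it was 2.01 and not called (adjusted p = 0.0873), and limma-voom did not call it with all libraries (adjusted p = 0.139). PDF1.2b (AT2G26020), its copy on chromosome 2, stood at 0.440, 0.266 and 0.120 CPM in wild type and at 2.6, 5.86 and 1.58 CPM in pad4, again without overlap. Its log2 difference was 3.61 (SE 0.61, adjusted p = 4.00e-04) and ran from 2.93 to 4.12 with each library left out in turn. It was 2.93 without pad4 library 2, still called. That library also held 13.3 CPM of the third copy PDF1.2c, against at most 0.861 CPM in any other library. It had 11.997 CPM of the flower gene SEP3, against 1.80 and 8.72 CPM in libraries 1 and 3 of its group. Of that group, library 3 held the lowest PDF1.2a and PDF1.2b values. The part of these differences in the defensin values was not tested.

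After 2'cADPR the mean defensin levels were lower in both genotypes, without a call in edgeR's fit of all 12 libraries. PDF1.2a stood at 0.239, 0.139 and 0.0969 CPM in treated wild type, below all its controls (log2 -1.85, adjusted p = 0.241), and the fall was called when only the wild type groups were fitted (adjusted p = 0.0138). In treated pad4 it stood at 1.196, 0.177 and 3.80 CPM, a spread of 21.5 times between libraries that overlapped the controls (log2 -2.36, 95% interval -4.21 to -0.51, adjusted p = 0.871). Without water-treated pad4 library 2 that log2 was -0.44, and without treated library 3 it was -3.68. PDF1.2b stood at 0.263, 0.116 and 0.145 CPM in treated wild type, overlapping its controls (log2 -0.63, adjusted p = 0.458, and -0.11 without control library 1). In treated pad4 it stood at 0.654, 0.177 and 0.675 CPM, all below the pad4 controls. That log2 difference was -2.73 (95% interval -3.95 to -1.52). It was not called by edgeR (adjusted p = 0.381) or limma-voom (adjusted p = 0.384), and was called by DESeq2 (adjusted p = 0.00438). It was -2.05 to -3.07 with each library left out in turn.

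Between genotypes after 2'cADPR, PDF1.2a was higher in pad4 by a log2 of 3.41 (SE 1.21, adjusted p = 0.0191), although treated pad4 library 2 lay inside the wild type range. The call was lost without treated wild type library 2 or 3, without treated pad4 library 3 (log2 2.09), and with limma-voom (adjusted p = 0.348). PDF1.2b was not called (log2 1.51, adjusted p = 0.0561), but was by DESeq2 (adjusted p = 0.0290) and without treated pad4 library 2 (log2 1.91, adjusted p = 0.0166). It was also called with no filter, with only those groups fitted, with the copies summed and without treated wild type library 1 (adjusted p 0.0276 to 0.0494), and not by limma-voom (adjusted p = 0.276). The interactions were -0.51 for PDF1.2a (adjusted p = 0.823) and -2.10 for PDF1.2b (adjusted p = 0.0671), and without water-treated pad4 library 2 they were 1.41 and -1.42. The PDF1.2b interaction was called by DESeq2 (adjusted p = 0.0283), without water-treated wild type library 1 (-2.62, adjusted p = 0.0364) and without water-treated pad4 library 3 (-2.44, adjusted p = 0.0318). PDF1.2a and PDF1.2b are 72.8% identical over their exons with a longest shared run of 41 bases, and PDF1.2a and PDF1.2c are 77.3% identical with 52, so reads could have been split or lost among these copies.

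**Figure D2:**
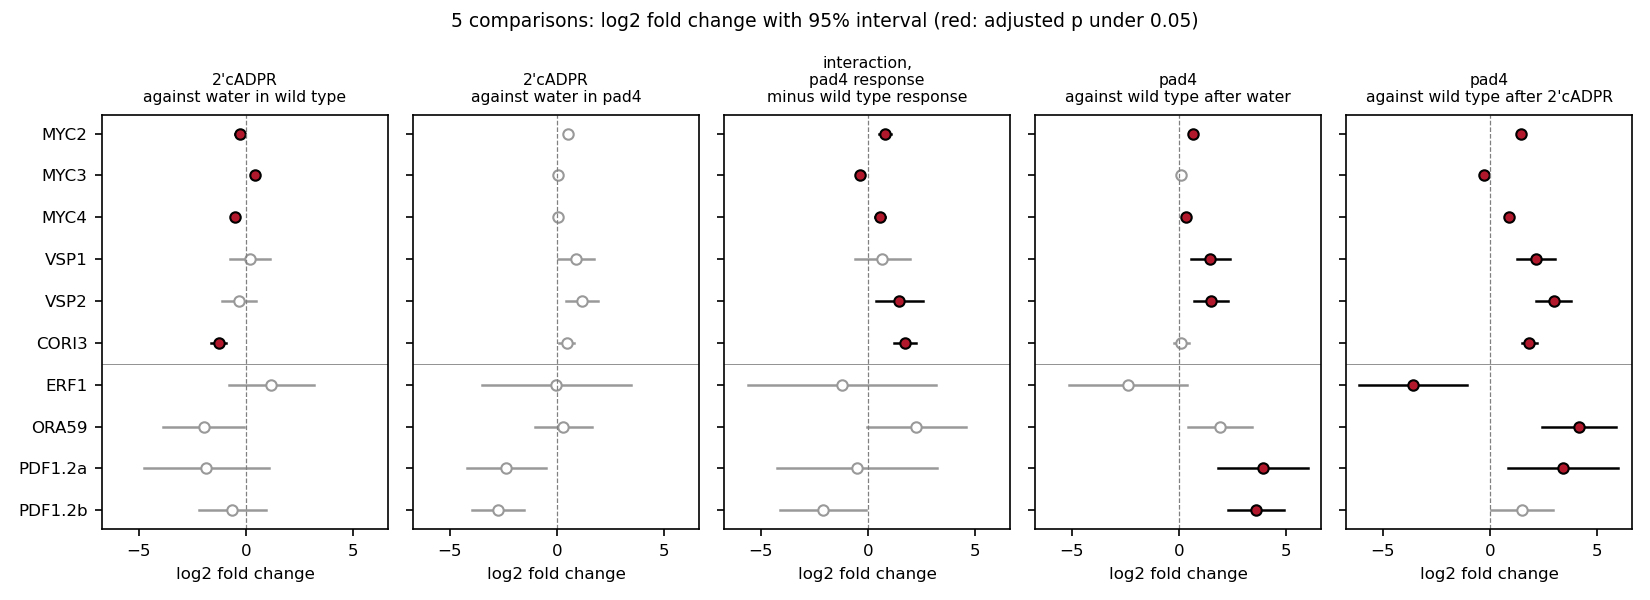
Fitted log2 fold change of each gene (horizontal axis) in the 5 comparisons (panels), with its 95% interval. Filled red points passed an adjusted p under 0.05 and open points did not. In pad4 the 6 MYC branch points lie right of 0 and those of PDF1.2a and PDF1.2b lie left of it, with no point called.

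As groups the branches can be set beside all genes. In wild type 4 of the 10 genes were called after 2'cADPR, 1 up and 3 down, where 69.2% of all tested genes were called, 34.6% up and 34.6% down. All 4 were among the 6 of the MYC branch. With a fold of at least 2 also asked, CORI3 alone was called, against 30.5% of all genes. The median log2 fold change was -0.30 for the MYC branch and -1.24 for the ERF branch (-0.47 without water-treated library 1), against -0.015 for all genes. In 5 of 10 genes the groups did not overlap, and this held for 71.8% of all genes.

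In pad4 0 of the 10 were called by edgeR, where 1 gene of all tested was called (0.00509%). DESeq2 called MYC2 and PDF1.2b, and limma-voom called neither. At an unadjusted p under 0.05 there were 6 of the 10 (MYC2, VSP1, VSP2, CORI3, PDF1.2a and PDF1.2b) against 5.05% of all genes. The groups did not overlap in 5 of 10, against 13.0% of all genes. The 6 MYC branch values were all above 0, with a median log2 of 0.49, against -0.0036 for all genes. The ERF branch median was -1.195, and without water-treated pad4 library 2 it turned to 0.18. Both medians draw on ERF1, which held 3 counts in each pad4 group, too few to read a change from. PDF1.2a and PDF1.2b stayed below 0 without that library, at -0.44 and -2.05, and ORA59 stood at 1.44.

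The response differed between genotypes in 5 of the 10, 4 with a higher and 1 with a lower value in pad4, against 57.6% of all genes, of which 29.4% were higher and 28.2% lower. All 5 were of the MYC branch. At a fold of at least 2 VSP2 and CORI3 were called, against 27.2% of all genes. Between genotypes after water 6 of the 10 were called, all higher in pad4, where 29.2% of all genes were called and 11.7% were higher. The median log2 was 0.49 for the MYC branch and 2.76 for the ERF branch (1.38 without water-treated pad4 library 2), against 0.0017 for all genes, and 6 of 10 did not overlap against 43.7%. After 2'cADPR 9 of the 10 were called, 7 higher and 2 lower in pad4, where 74.2% of all genes were called, 37.4% higher and 36.8% lower. The 2 lower genes were MYC3 and ERF1. ERF1 passed the filter on low counts only through wild type, and ORA59, among the 7 higher, only through pad4. The medians were 1.64 and 2.46 against 0.021, and 8 of 10 did not overlap against 77.1%. The comparisons share libraries and are not independent of each other.

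Levels per gene length kept the branches apart in wild type and in treated pad4, and the branches overlapped in water-treated pad4. In deposited FPKM (fragments per kilobase of exon and M reads), CORI3 was the most abundant of the 10 in every group, at 234 ± 14.2 in wild type after water, 97.1 ± 13.6 after 2'cADPR, 261 ± 25.2 in pad4 after water and 365 ± 107 after 2'cADPR (SD, n = 3). MYC3 came next in wild type, at 35.9 ± 2.05 FPKM after water and 48.1 ± 0.960 after 2'cADPR, followed by MYC2 at 23.5 ± 1.25 and 19.3 ± 0.834 without overlap. MYC4 and VSP2 overlapped as neighbours in both wild type groups. In water-treated pad4 MYC3 at 39.2 ± 0.952 FPKM and MYC2 at 38.0 ± 3.92 overlapped. In treated pad4 VSP2 at 59.5 ± 25.4 FPKM stood next to CORI3 and overlapped MYC2 at 54.9 ± 5.54, and MYC3 at 41.3 ± 0.226 lay below both in mean level. The 4 ERF branch genes were the lowest in both wild type groups, at mean levels between 0.115 and 0.974 FPKM. In water-treated pad4 PDF1.2a reached 15.5 ± 19.95 FPKM, between MYC4 and VSP1 in mean level. Its values there were 5.56, 38.5 and 2.54 FPKM, so the mean rests on library 2. Through library 2 the range of PDF1.2a overlapped those of MYC2, MYC3, MYC4, VSP1 and VSP2, and the range of PDF1.2b overlapped that of VSP1.

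**Figure D3:**
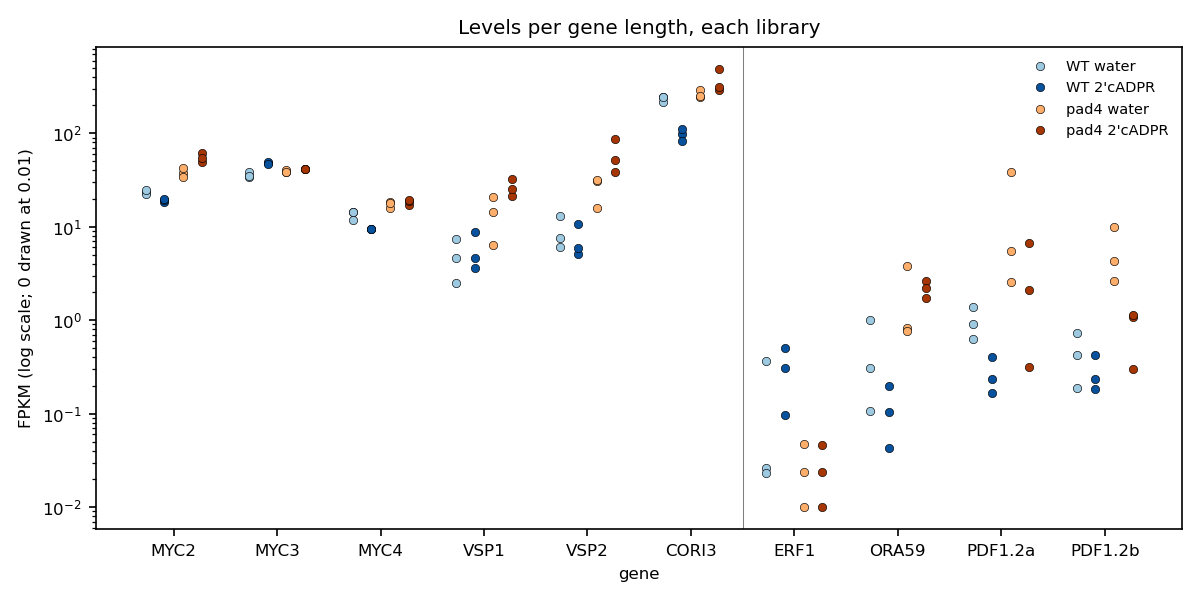
Deposited FPKM of each gene (vertical axis, log scale, with values of 0 drawn at 0.01) for each library, in groups by color. CORI3 lies highest in every group, and ERF1 lies lowest in every group except wild type after 2'cADPR.

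The genes differed in how much replicate libraries scattered. The SD of log2 CPM (with 0.5 added) within groups was 1.14 for PDF1.2a, 0.66 for VSP1, 0.63 for ORA59, 0.56 for VSP2 and 0.50 for PDF1.2b, where the median over 19652 tested genes was 0.14. These 5 stood at the 98.7th percentile or higher. MYC3 scattered least, with an SD of 0.038 at the 0.397th percentile, and MYC4 and MYC2 stood at the 19.5th and 42.6th. CORI3 stood between them, with an SD of 0.25 at the 80.6th percentile, and ERF1 at 0.28 had few counts in any library.

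Pairs of outputs varied together within groups. Over the 12 libraries, which share their depth and handling, the deviations of VSP1 and VSP2 from their group means had a Pearson r of 0.89, and those of PDF1.2a and PDF1.2b of 0.88. Each pair consists of copies that could exchange reads, and their upstream windows share the runs of 23 and 22 bases above. Shared runs were sought only for these pairs and for ORA59 with PDF1.2a. The part of shared sequence or exchanged reads in these correlations was not tested. ORA59 deviated with PDF1.2b (r = 0.70) and PDF1.2a (r = 0.53), of which water-treated pad4 library 2 is the highest point. MYC2 had an r of 0.62 with CORI3 and -0.30 with VSP2, and VSP2 and PDF1.2a showed an r of 0.063. On levels rather than deviations, where group differences enter, MYC2 had an r of 0.89 with VSP2, 0.84 with CORI3 and 0.77 with ORA59.

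**Figure D4:**
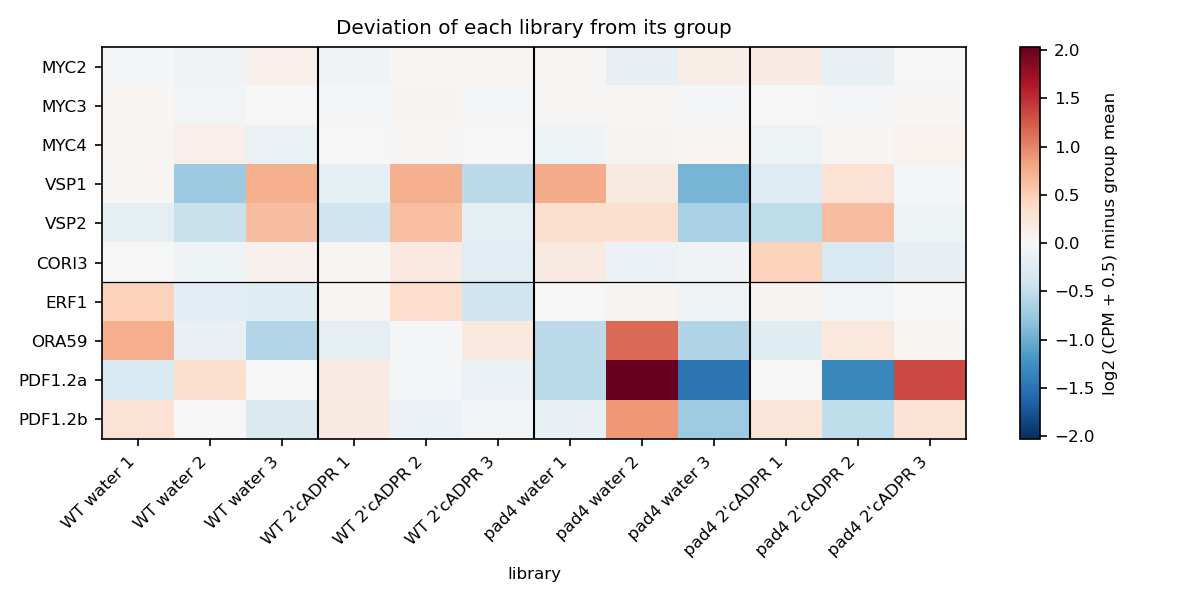
Deviation of each library from its group mean in log2 of CPM plus 0.5 (color) for the 10 genes (rows) and 12 libraries (columns). The VSP genes and the PDF1.2 genes form pairs that deviate together, and library 2 of pad4 after water is high in ORA59, PDF1.2a and PDF1.2b.

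Genes most like each output over the 12 libraries were taken from 6560 candidates with a symbol and a mean of at least 5 CPM. For MYC2 they were OPR3 (r = 0.97), an enzyme of jasmonate synthesis, TSA1 (0.96) and the beta-glucosidase gene BGLU18 (0.96). BGLU18 had mean levels of 69.8 and 22.6 CPM in wild type after water and 2'cADPR, and of 166 and 299 CPM in pad4. For VSP2 they were CLC-D (0.95), the beta-amylase gene BAM5 (0.94) and the clock gene GI (0.93). For ORA59 they were MEE55 (0.95), RTFL17 (0.95) and PDC2 (0.93). For PDF1.2a they were ftsh9 (0.87) and the chloroplast genes psbD (0.87) and psbB (0.86), where water-treated pad4 library 2 is again high. These values describe 12 libraries in 4 groups and share depth and group differences.

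Other genes of the pathway were counted by lists. Of 13 tested synthesis genes 7 rose and 4 fell in wild type after 2'cADPR, where 34.6% of all genes rose and 34.6% fell. AOS, the allene oxide synthase gene, fell from 274 ± 34.3 to 125 ± 5.40 CPM, AOC4, an allene oxide cyclase, from 33.2 ± 6.32 to 10.4 ± 1.43 CPM, and the lipoxygenase LOX4 rose from 14.2 ± 1.38 to 73.0 ± 18.6 CPM (SD, n = 3). The median log2 of the list was 0.35. After 2'cADPR 6 of the 13 were higher and 7 lower in pad4 than in wild type (37.4% and 36.8% of all genes), AOS at 426 ± 48.4 CPM and AOC3, another cyclase, at 3.59 ± 0.644 against 36.8 ± 4.34 CPM in wild type.

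Of 17 genes of perception and repression 7 rose and 3 fell in wild type, with a median log2 of 0.39, where 69.2% of all genes were called. The repressor genes JAZ9 and JAZ6 fell from 68.4 ± 2.75 to 25.4 ± 3.32 CPM and from 25.1 ± 1.92 to 11.97 ± 1.21 CPM, and the co-repressor gene TPL rose from 112 ± 6.16 to 224 ± 12.5 CPM. The JAZ genes did not move alike. JAZ3 was also called down (log2 -0.24), while JAZ1, JAZ5, JAZ10 and JAZ11 were called up (log2 1.38, 1.12, 1.41 and 0.85). After 2'cADPR JAZ9 stood at 184 ± 17.5 CPM in pad4 and TPL at 93.6 ± 7.30 CPM. In the turnover list, of 8 tested genes 3 rose and 1 fell in wild type (median log2 0.0061, with 69.2% of all genes called), with IAR3, an amidohydrolase, going from 31.6 ± 1.86 to 61.3 ± 1.79 CPM and ILL6, another, from 11.7 ± 3.29 to 3.52 ± 0.338 CPM.

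Among 13 other MYC branch genes 6 rose and 4 fell in wild type, with a median log2 of 0.56, where 69.2% of all genes were called. The chlorophyllase gene CLH1 moved as CORI3 did, from 142 ± 14.6 to 39.4 ± 2.96 CPM, and stood at 291 ± 9.51 CPM in treated pad4. The tyrosine aminotransferase gene TAT3 moved the other way, from 99.6 ± 31.1 to 909 ± 130.0 CPM, and stood at 15.8 ± 1.68 CPM in treated pad4. Of 11 tested genes of the other ERF branch list 2 rose and 5 fell in wild type, with a median log2 of -0.42, beside the same 69.2%. The ethylene regulator gene EIN3 rose from 130 ± 1.34 to 210 ± 11.7 CPM and its relative EIL1 fell from 65.3 ± 7.27 to 33.3 ± 2.34 CPM. In pad4 0 genes of any of these lists were called.

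The 6 genes listed as salicylic acid antagonists of jasmonate (WRKY70, WRKY62, WRKY50, WRKY51, GRX480 and NPR1) all rose in wild type, with a median log2 of 2.94, and all were lower in pad4 after both treatments. Of all genes 34.6% rose in wild type, and 17.5% after water and 36.8% after 2'cADPR were lower in pad4. WRKY51 went from 7.36 ± 2.59 to 147 ± 14.2 CPM and WRKY62 from 4.64 ± 1.64 to 63.5 ± 2.80 CPM. In pad4 WRKY51 stood at 0.0310 ± 0.0137 and 0.107 ± 0.111 CPM, and WRKY62 at 0.0698 ± 0.0239 and 0.0228 ± 0.0226 CPM. The response differed between genotypes in 4 of the 6, against 57.6% of all genes. Their part in the levels of the MYC and ERF branch genes was not tested.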

How the data were processed

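Per the labels' protocols, rosette leaf RNA was isolated in TRIzol, and libraries came from a SMARTER mRNA-seq kit. Reads passed through HISAT, HTSeq and fastp with the build TAIR10, per the submitters' processing notes, with no settings stated in the sources used. The deposited counts are raw reads per gene. The deposited FPKM values, made by the authors from those counts and gene length, served only to compare levels between genes. Exon lengths of TAIR10.1 matched those implied by the FPKM within 0.5% for 24224 of 24228 genes, so its coordinates were used. The 24 files of single samples equalled the tables.

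Groups and replicate numbers came from sample titles. The counts were fitted by edgeR 4.0.16 under R 4.3.3 (TMM factors, filterByExpr with a minimum count of 10, quasi-likelihood fit of all 12 libraries, two-sided F-tests). Calls needed an adjusted p (Benjamini-Hochberg, over the 19652 tested genes, which held 99.98% of counts) under 0.05. CPM use TMM-adjusted totals. Intervals are 95%, and those of counts cover counting error only. The median SE of a log2 fold change was 0.12 in each genotype. DESeq2 1.42.0, limma-voom (limma 3.58.1), RLE factors, other filters, smaller fits, a replicate block, summed copies and left-out libraries were the alternatives.

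The 10 genes and the lists were chosen with earlier results of these data known. From each list up to 2 called genes a direction and comparison with the smallest adjusted p could be named. JAZ1, JAZ3, JAZ5 and JAZ10 are given besides, outside that rule and outside the counts of named genes under other settings. The lists drawn on were jasmonate synthesis, turnover, perception and repression, other MYC and ERF branch genes, and salicylic acid antagonists. JOX1 and ERF96 of these lists, and the markers SESA3, CRU3 and COBL9, were not analysed here.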

Additional observations from a re-analysis of the deposited data

Results flagged for a closer look

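The response to 2'cADPR differed between genotypes in 5 genes by a test of the difference itself, the interaction in edgeR's quasi-likelihood fit. The values are log2 fold changes in pad4 minus those in wild type, with 3 libraries in each group. They were 0.80 for MYC2, -0.37 for MYC3, 0.57 for MYC4, 1.47 for VSP2 and 1.73 for CORI3. For MYC2 and CORI3 the fitted change was below 0 in wild type and above 0 in pad4, while for MYC3 and MYC4 a change in wild type stood beside one near 0 in pad4. VSP2 had a change of -0.30 in wild type, with an interval that spanned 0 and a value of 0.10 without water-treated library 3. Its interaction was not called without any 1 of 4 libraries, with the VSP copies summed or by DESeq2. Of all tested genes 57.6% passed the same test.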

How the results depend on the processing

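Under the other tools, factors, filters and fits, 859 of the values of named genes kept their direction and their side of the threshold, 14 passed it newly, 8 no longer passed and 1 changed sign. With each library left out, 926 kept both, 11 passed newly, 32 no longer passed and 9 changed sign. The number of genes called in pad4 was 1, and 29 with DESeq2, 2 with only the groups compared, and 1 to 3 with a library left out; DESeq2 called 2 of the 10. With a fold of at least 2 also asked, the 10 genes gave 1 call in wild type in place of 4, and 2 for the interaction in place of 5. With a library left out the calls among the 10 were 3 to 5 in wild type, 0 in pad4, 4 to 6 for the interaction, 5 to 7 after water and 7 to 10 after 2'cADPR. The sign changed for genes with no call. In wild type VSP1 was -0.11 with VSP copies summed and ran from -0.26 to 0.69 with a library left out, and VSP2 from -0.69 to 0.10. In pad4 ERF1 ran from -0.87 to 0.81 and ORA59 from -0.074 to 1.44, and the interaction of PDF1.2a from -1.83 to 1.41. The causes were not tested. VSP2's interaction was not called with copies summed (adjusted p = 0.0620) or by DESeq2 (adjusted p = 0.0607). Same-numbered libraries of different groups had correlations of -0.15 to 0.14 in their deviations, so the numbers were not taken as a pairing. A replicate block left 4, 0, 5, 6 and 9 calls among the 10, and called 1 gene in pad4 in all. A filter of 5 CPM in 3 libraries removed the ERF branch, whose libraries held 0 to 947 counts a gene. ERF1 held 0 to 22 counts a library, which limits its fitted values, and the counting intervals given leave out the spread between libraries.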
